A study of Drosophila melanogaster with 2 samples.

Results

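The genes described here are the 290 nuclear transfer RNA (tRNA) genes of Drosophila melanogaster, taken from an annotation that holds 18164 genes on the main chromosome arms. They were chosen by their annotated biotype, tRNA, in Ensembl BDGP6, and by position on the arms 2L, 2R, 3L, 3R, 4 or X. No measured value entered that choice. The data were peak lists from chromatin immunoprecipitation and sequencing (ChIP-seq) with an antibody against GFP. The chromatin came from entire wandering larvae of the third instar, males and females together, from a transgenic line expressing tai-eGFP, a fusion that carries GFP at the C-terminal end of the tai protein. The samples formed 1 group, and its 2 biological replicates are labelled 1 and 3. No untagged animals, other stage or other tissue were analysed here, so nothing could be set against another condition. Whole larvae mix many tissues, and binding in a few cells cannot be told apart from weaker binding in many.

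Taiman, the product of tai, is a coactivator of the ecdysone receptor and binds DNA through partner proteins. It works at genes that RNA polymerase II transcribes. Transfer RNA genes are instead transcribed by RNA polymerase III from promoter elements inside the gene, the A box and the B box. TFIIIC binds these boxes and places TFIIIB, which contains Brf, just upstream of the gene, and TFIIIB then recruits the polymerase.

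The sequences of 6 tRNA genes show where the promoter boxes lie within the transcribed part. They are 5 genes with an IDR summit, those of highest signal on 2L, 3L, 3R and X whose sequence is shown here, with 1 per anticodon family, and 1 from a large locus without one. The IDR list is the deposited list thresholded for reproducibility between replicates. Its 2591 regions are also the 2591 strongest of the list pooled from both replicates, so these lists are not separate evidence. A place in it does not mean a high rank in each replicate. Each is printed 5′ to 3′ on the strand of the gene, from RefSeq's copy of the Release 6 genome, with the A box core (TGGCNNAG) and B box core (GTTCNANNC) in capitals where those letters were found. The first 5 had an IDR summit within 500 bp and the last had none.
tRNA:Gln-TTG-2-1, chrX:3427452-3427523, minus strand: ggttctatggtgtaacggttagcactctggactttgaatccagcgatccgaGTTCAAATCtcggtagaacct
tRNA:Lys-TTT-1-1, chr2L:8290727-8290799, plus strand: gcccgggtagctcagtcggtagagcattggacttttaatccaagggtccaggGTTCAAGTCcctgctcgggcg
tRNA:Val-CAC-2-5, chr3R:19672277-19672349, minus strand: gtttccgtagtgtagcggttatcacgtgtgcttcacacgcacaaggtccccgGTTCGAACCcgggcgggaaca
tRNA:Ser-AGA-2-4, chr2L:3173003-3173084, minus strand: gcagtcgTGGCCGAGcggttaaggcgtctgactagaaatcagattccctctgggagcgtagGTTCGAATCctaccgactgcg
tRNA:Gln-CTG-3-1, chr2L:2010869-2010940, minus strand: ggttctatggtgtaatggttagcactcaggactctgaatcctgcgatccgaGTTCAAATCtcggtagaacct
tRNA:Arg-TCG-2-1, chrX:14014814-14014886, plus strand: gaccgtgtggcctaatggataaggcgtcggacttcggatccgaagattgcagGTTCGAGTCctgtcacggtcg
The glutamine genes tRNA:Gln-TTG-2-1 and tRNA:Gln-CTG-3-1 differed at 4 of 72 positions. The B box core lay near the 3′ end in all 6 printed genes, and the A box core in these exact letters was present in tRNA:Ser-AGA-2-4 only.

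The bases around a summit did not belong to a tRNA gene in either of the strongest cases. These windows of 101 bases are given on the plus strand with the summit base in capitals, for the summits nearest to tRNA:Gln-TTG-2-1 and tRNA:Lys-TTT-1-1.
Summit at chrX:3427672-3427772: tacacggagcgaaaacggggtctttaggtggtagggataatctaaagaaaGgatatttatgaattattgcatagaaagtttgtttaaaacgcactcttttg
Summit at chr2L:8290929-8291029: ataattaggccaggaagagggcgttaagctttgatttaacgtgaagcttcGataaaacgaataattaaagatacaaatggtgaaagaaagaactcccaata
The GC content was 35.6% in the first window and 34.7% in the second.

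Over all 290 genes the B box core was found in 271 (93.4%) and the A box core in 68 (23.4%). In the first 100 bases from the gene start, on the sense strand, the B box core occurred in 265 of 290 tRNA genes (91.4%) and in 295 of 13945 protein-coding genes (2.12%). On both strands together it occurred in 265 tRNA genes and 558 protein-coding genes (4%). The A box core occurred in 68 tRNA genes against 344 protein-coding genes (2.47%) on the sense strand, and in 69 against 654 (4.69%) on both. The DNA replication-related element TATCGATA, which is common at promoters of housekeeping genes in flies, occurred in the first 100 bases of 0 tRNA genes and of 184 protein-coding genes (1.32%), and its letters read the same on both strands. A match is a description of these letters and not evidence of a bound site. A gene without a match may still hold a box in other letters.

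The tRNA genes formed 45 anticodon families and 22 isotype classes, counting initiator methionine and selenocysteine apart. Only 95 distinct sequences made up the 290 genes, and 52 genes had a sequence found once among the tRNA genes. The arms held 98 genes on 2R, 79 on 3R, 48 on 3L, 41 on 2L and 24 on X, and none lay on 4. Their median length was 73 bp. Inside protein-coding genes lay 134 of them, 127 in introns and 7 overlapping an exon, and 156 were intergenic.

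A peak summit near a tRNA gene was more common than near a protein-coding start in the whole lists. In the most stringent list the order depended on the distance allowed. Distance was counted from the summit to the nearest base of the tRNA gene, with 500 bp as the limit. The IDR list had a summit within that distance of 21 of 290 tRNA genes, or 7.24% (95% Clopper-Pearson interval 4.54 to 10.9). The same list had one at 732 of 13945 protein-coding gene starts (5.25%), at 4 of 269 snoRNA genes (1.49%) and at 1.94% of positions along the arms where a gene of median tRNA length could lie. The interval for tRNA genes therefore contains the share at protein-coding starts and lies above those at snoRNA genes and arm positions. With 250 bp as the limit the shares were 3.45% of tRNA genes (10) and 3.79% of protein-coding starts, and with 1000 bp they were 12.4% (36) and 6.64%. When any annotated start of a protein-coding gene was counted, the share was 6.33%.

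In the pooled list of both replicates 134 tRNA genes had a summit within 500 bp, or 46.2% (40.4 to 52.1). Protein-coding starts had one in 19.6% of cases, snoRNA genes in 24.5% and arm positions in 20.7%. In replicate 1 the share was 51% of tRNA genes (45.1 to 56.9), against 22.1% of protein-coding starts and 20.4% of arm positions. In replicate 3 it was 37.2% (31.7 to 43.1), against 20.5% and 21.1%. In all 3 of these lists the interval for tRNA genes lay above every other share. Both replicate lists had a summit at 87 tRNA genes (30%), neither at 121 (41.7%), and none of the 4 lists at 115 (39.7%). The whole lists hold about 30000 regions each, background regions included per the deposited text records, so a summit in them is no call of binding. Intervals cover counting error only, and neighbouring tRNA genes can share a summit, which these intervals do not take into account.

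**Figure D1:**
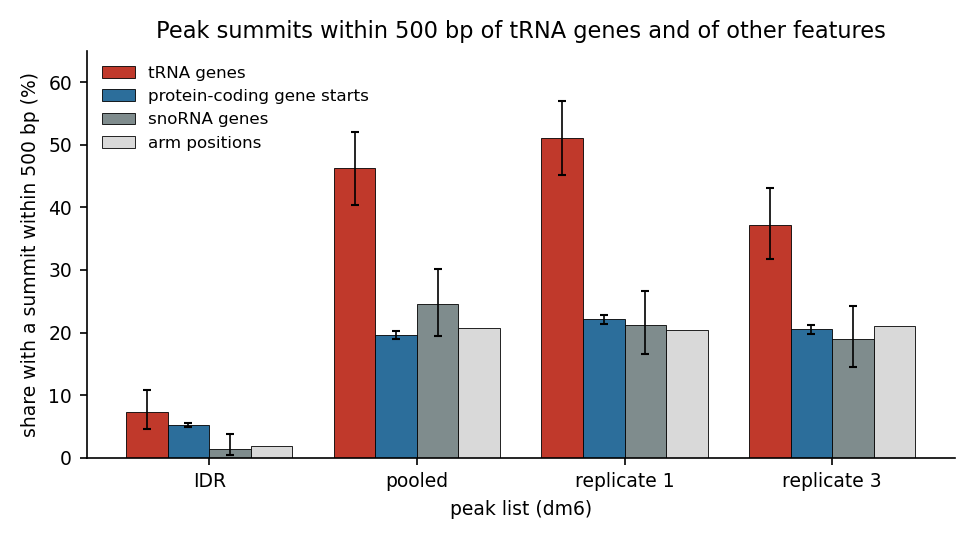
The share of genes or positions (%) with a peak summit within 500 bp is plotted for 290 tRNA genes, 13945 protein-coding gene starts, 269 snoRNA genes and all arm positions in the 4 peak lists, with 95% Clopper-Pearson intervals on the gene groups. The tRNA bars stand at 46.2%, 51% and 37.2% in the pooled, replicate 1 and replicate 3 lists, above the other bars, and at 7.24% in the IDR list, where the protein-coding bar is at 5.25%.

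Among the strongest regions the share at tRNA genes was close to that at protein-coding starts. Among the 2567 strongest arm regions of replicate 1, as many as the IDR list holds on the arms, a summit lay at 16 tRNA genes (5.52%, interval 3.19 to 8.81), against 6.68% of protein-coding starts and 1.93% of arm positions. Among the 2567 strongest of replicate 3 it lay at 18 (6.21%, interval 3.72 to 9.63), against 5.01% and 1.97%. Both top sets had a summit at 5 tRNA genes (1.72%, interval 0.562 to 3.98), against 3.21% of protein-coding starts. Those 5 were tRNA:Ser-AGA-2-4, tRNA:Ala-TGC-2-1, tRNA:Glu-TTC-1-5, tRNA:Val-CAC-2-5 and tRNA:Gln-TTG-2-1. The top set of replicate 1 alone reached a further 11 tRNA genes and that of replicate 3 alone a further 13. No tRNA gene had its nearest summit among the 100 strongest regions of either replicate.

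Within 500 bp of the 21 tRNA genes lay 17 IDR summits. Of these 16 were the nearest to a gene, 5 to a pair of genes and 11 to a single gene, and the other was a weaker one at tRNA:Gln-TTG-2-1. The values that follow are of the 16. Their signal, which is the authors' own value per peak on a scale not stated in the sources used here, ran from 65.2 to 197 with a median of 76.6. All arm IDR peaks had a median of 89.1, and 6 of the 16 were above it. The genes belonged to 14 anticodon families and 12 isotypes, and 10 isotypes had none. Every one of the 21 genes held the B box core, and 2 held the A box core in the exact letters searched. The intervals, 83.9 to 100% and 1.17 to 30.4%, contain the shares over all tRNA genes, 93.4% and 23.4%.

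The strongest of these summits was at tRNA:Gln-TTG-2-1, which decodes glutamine codons and lies alone in an intron of CG12535 on X. Its IDR signal was 197, rank 246 of the list, 199 bp upstream of the gene. The replicate 1 region that overlapped the peak had a signal of 126 (rank 280) and the replicate 3 region 78.3 (rank 286). The peak thus had similar ranks in both replicates. The gene also had a further IDR summit on the same side, at 400 bp, with a signal of 77.8 at rank 1692.

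tRNA:Lys-TTT-1-1, a lysine gene that lies alone in an intron of Btk (a Tec family tyrosine kinase) on the opposite strand, had an IDR signal of 149 at rank 454. Its overlapping region had a signal of 125 (rank 284) in replicate 1 and 27.8 (rank 4209) in replicate 3. The replicates differed more at this gene than at tRNA:Gln-TTG-2-1, and only the replicate 1 region was among the 2567 strongest.

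tRNA:Glu-TTC-1-5, a glutamate gene in a locus of 7 on 2R, had an IDR signal of 145 at rank 487, with 87.9 (rank 613) in replicate 1 and 78.5 (rank 285) in replicate 3. It lay 2031 bp from the nearest 5S rRNA gene, which RNA polymerase III also transcribes. tRNA:Val-CAC-2-5, a valine gene alone in an intron of Naam (a nicotinamidase), had 120 at rank 698, with 66.7 (rank 1039) and 52.7 (rank 681). Its summit was also 432 bp from a start of Naam. These regions were strong in both replicates.

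Next by IDR signal were the summits at tRNA:Ser-AGA-2-4 (94.2, rank 1144) and tRNA:Ala-TGC-2-1 (90.7, rank 1247). The serine gene had 49 (rank 1968) in replicate 1 and 42.4 (rank 1174) in replicate 3, and the alanine gene 44.7 (rank 2398) and 43.7 (rank 1075). All 4 of these regions were within the top 2567. The remaining 10 summits had IDR signals of 80.2 or lower and none was overlapped by a top region of both replicates except at tRNA:Arg-ACG-1-1, whose replicate summits in that peak were not both within 500 bp of the gene.

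Among those 10, 4 were stronger by rank in replicate 1. They were at tRNA:Leu-CAG-1-1 (an isolated leucine gene, ranks 2265 and 2831), at the glutamine pair tRNA:Gln-CTG-2-4 and tRNA:Gln-CTG-3-1 in CG4238 (1831 and 5265), at tRNA:Pro-AGG-1-2 (2394 and 7273) and at the arginine pair tRNA:Arg-CCT-1-2 and tRNA:Arg-CCT-1-3 (2290 and 3653). Their IDR signals were 80.2, 77, 69.7 and 66.1 in that order. At each of these 4 only the replicate 1 region was in the top 2567.

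The other 6 had the better rank in replicate 3. They were at tRNA:Arg-ACG-1-1 (IDR signal 76.2, ranks 1421 and 948), the isolated tRNA:Phe-GAA-1-2 (72.4, ranks 2798 and 1005) and the asparagine pair tRNA:Asn-GTT-1-7 and tRNA:Asn-GTT-1-8 (69.4, ranks 8380 and 1516). The asparagine pair tRNA:Asn-GTT-1-1 and tRNA:Asn-GTT-1-2 had 68.2 with ranks 5033 and 2125. The threonine pair tRNA:Thr-CGT-1-2 and tRNA:Thr-CGT-1-3 had 68.2 with ranks 4433 and 1817, and tRNA:Val-CAC-1-1 had 65.2 with ranks 7985 and 1359. Apart from tRNA:Arg-ACG-1-1, only the replicate 3 region of each was in the top 2567.

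All 16 peaks were overlapped by some region in both replicates. A top region overlapped 11 of 16 in replicate 1 and 11 of 16 in replicate 3. Top regions of both replicates overlapped 6 of 16 (37.5%, interval 15.2 to 64.6), against 1293 of 2567 arm IDR peaks (50.4%). The interval contains the share of all IDR peaks. Both replicates were called with the same control alignment, per the deposited text records, and its part in their overlap was not tested.

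**Figure D2:**
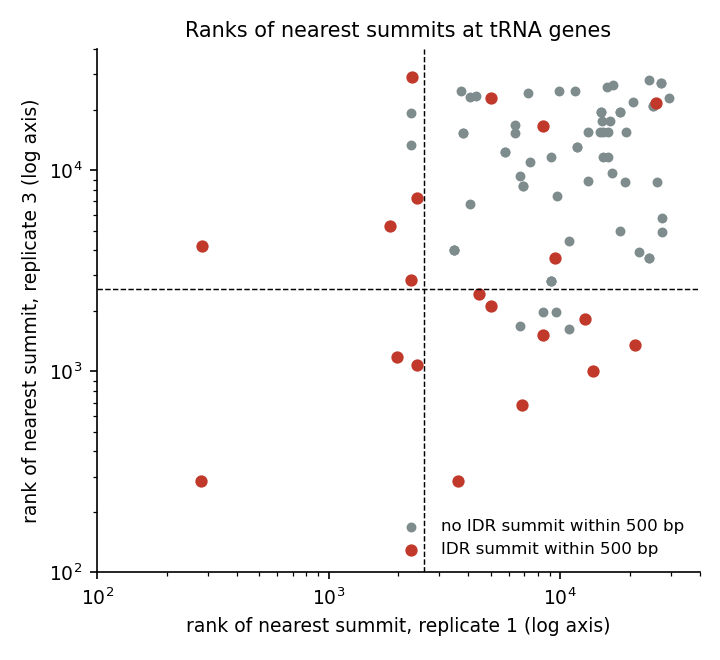
Each point is a tRNA gene with a summit within 500 bp in both replicate lists (87 genes), placed by the rank of its nearest summit in replicate 1 and in replicate 3 on log axes where rank 1 is the strongest, with dashed lines at rank 2567. Red points have an IDR summit within 500 bp, and most points lie beyond the dashed lines in at least one replicate.

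Most summits within 500 bp lay beside the tRNA genes, which are short. No IDR summit fell inside a tRNA gene, against 9 genes in the pooled list, 8 in replicate 1 and 2 in replicate 3. At the 21 genes the nearest IDR summit was upstream of the gene at 13 and downstream at 8, with a median distance of 254 bp. The median position was -163.0 bp from the gene start, negative meaning upstream, but it came to 227.0 bp with the stronger 1283 IDR peaks alone, so the side depended on which peaks were counted. The peak interval, as opposed to its summit, overlapped a tRNA gene at 8 of 16.

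In the larger lists the sides were close to even in the pooled list and leaned upstream in replicate 3. Upstream, inside and downstream counts were 63, 9 and 62 in the pooled list, 77, 8 and 63 in replicate 1, and 63, 2 and 43 in replicate 3. The upstream share was 47%, 52% and 58.3% in that order, and its interval in replicate 3, 48.5 to 67.7, contains an even split. The median distances were 200, 171 and 254 bp.

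**Figure D3:**
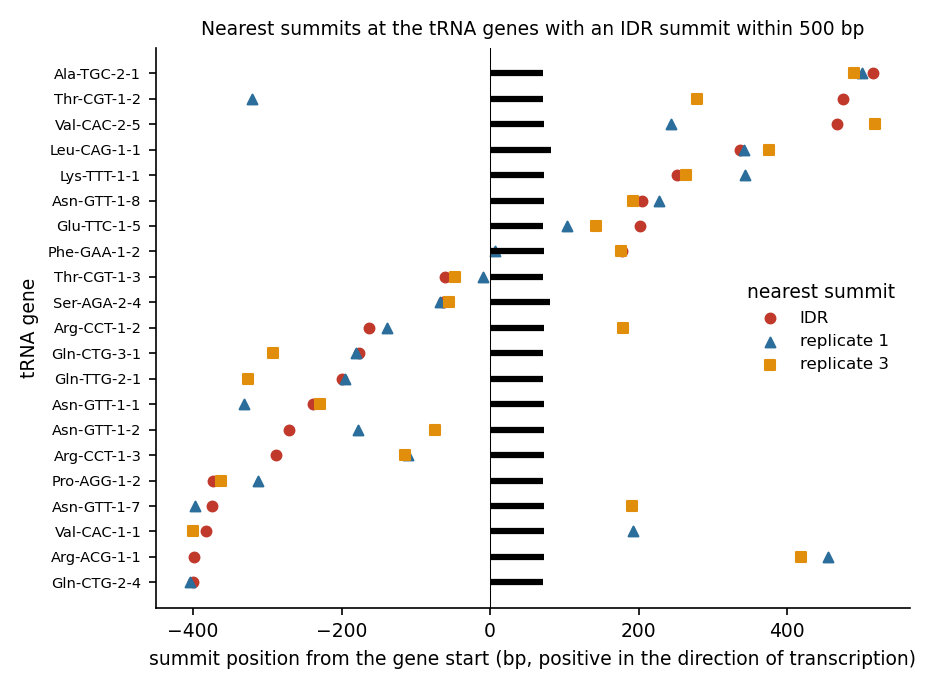
Nearest summits in the IDR, replicate 1 and replicate 3 lists are plotted by position from the gene start (bp, positive in the direction of transcription) for the 21 tRNA genes with an IDR summit within 500 bp, and black bars show the gene. The IDR summits lie on both sides, 13 upstream and 8 downstream, and none is on a black bar.

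Summits were denser than over the arms at most distances up to 2000 bp from a tRNA gene, and the densest single bin was at 101 to 200 bp in all lists but the pooled one. At 101 to 200 bp it was 0.158 IDR summits per kb against 0.0192 over all arm bases, a ratio of 8.23 that rests on 7 summits. In replicate 1 the highest density was at the same distance, 0.947 per kb against 0.224. In the pooled list it was at 301 to 400 bp, 0.736 per kb or 3.29 times the arm value. In replicate 3 it was 0.519 at 101 to 200 bp, with 0.484 at 401 to 500 bp. Inside the genes, which cover 22026 bases, the density was 1.83 times the arm value in the pooled list, 1.62 times in replicate 1 and 0.406 times in replicate 3, from 9, 8 and 2 summits. Inside the genes the interval contains the arm value in every list. That for the IDR list, from 0 summits, reaches 0.167 per kb. At 1001 to 2000 bp the density was 1.7 times the arm value in the IDR list, with an interval of 0.0157 to 0.0601 that contains it. In the others it was between 1.42 and 1.44 times, with intervals above the arm value. Only at 101 to 200 and 301 to 400 bp did the IDR interval lie above the arm value.

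**Figure D4:**
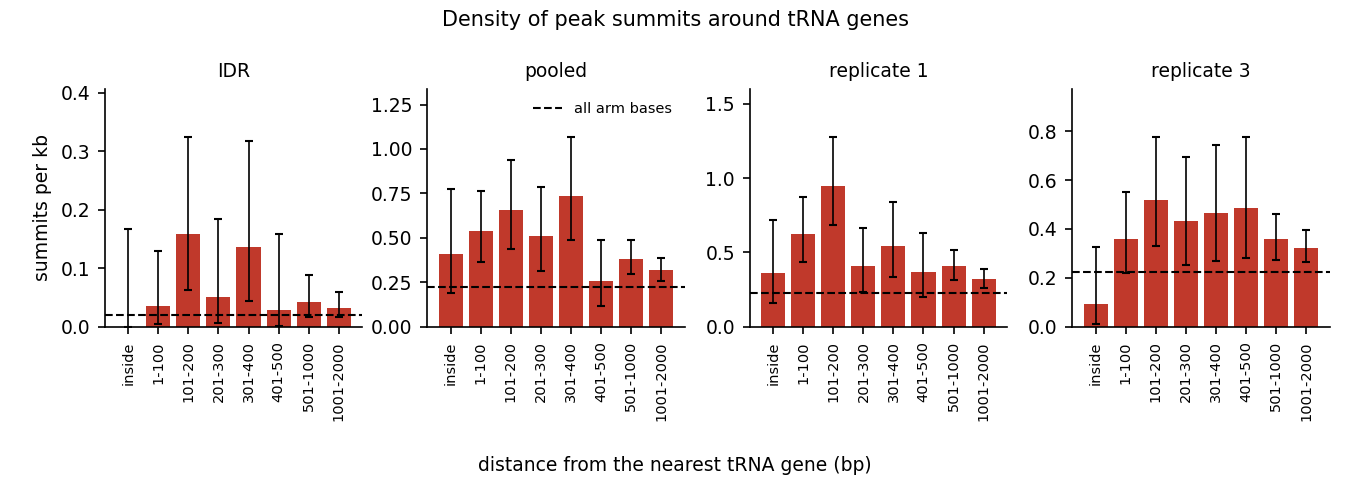
Bars give peak summits per kb by distance from the nearest tRNA gene (bp) in each list, with 95% Poisson intervals, and the dashed line is the density over all arm bases. In replicate 1 the tallest bar, 0.947 per kb, is at 101 to 200 bp, and inside the genes no IDR summit was found.

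Members of one locus were counted together by joining tRNA genes 5000 bp or less apart, which gave 144 loci. Of these 76 were isolated genes, 58 held 2 to 4 genes and 10 held 5 or more. An IDR summit lay at 16 loci (11.1%). By size it was at 5 of 76 isolated genes (6.58%, interval 2.17 to 14.7), 8 of 58 loci of 2 to 4 genes (13.8%, 6.15 to 25.4) and 3 of 10 large loci (30%, 6.67 to 65.2). These intervals overlap. In replicate 1 the shares were 38.2% (27.2 to 50), 65.5% (51.9 to 77.5) and 90% (55.5 to 99.7), so the interval for isolated genes lay below the others. In replicate 3 they were 28.9% (19.1 to 40.5), 51.7% (38.2 to 65) and 70% (34.8 to 93.3), with overlap. A larger locus covers more bases within 500 bp of a gene, so shares were also taken per gene. Isolated genes and genes of the large loci had an IDR summit in 6.58% and 5.56% of cases, a pooled one in 40.8% and 61.1%, a replicate 1 one in 38.2% and 61.1%, and a replicate 3 one in 28.9% and 40.3%. The per-gene intervals overlap in every list.

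**Figure D5:**
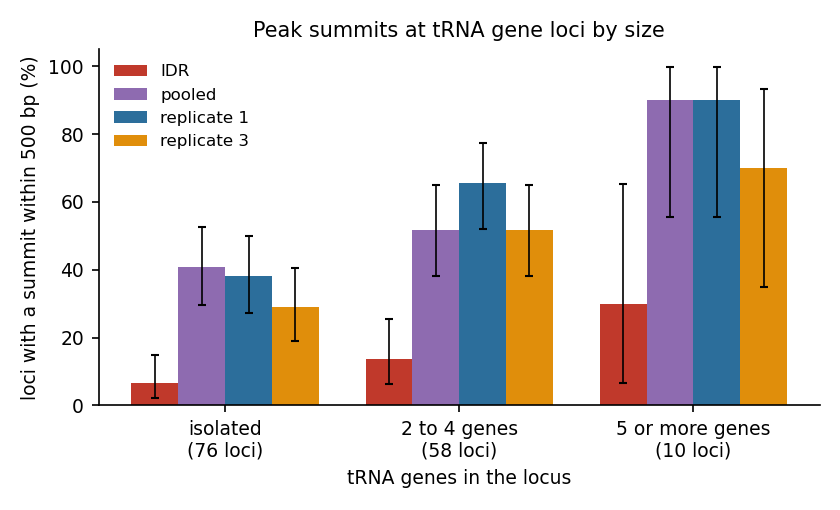
The share of tRNA gene loci (%) with a summit within 500 bp of a member is plotted by locus size and peak list with 95% Clopper-Pearson intervals. The share is higher for larger loci in each list, from 6.58% to 30% for IDR summits, and the intervals of the 10 large loci are wide.

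The largest loci differed in what they held. The locus at 3R 17617761 to 17631750 has 11 genes for alanine, proline, threonine and valine, of which 1 had an IDR summit (tRNA:Val-CAC-1-1), 9 a summit in replicate 1 and 6 in replicate 3. The locus at 2R 6161535 to 6171759 also has 11 genes, for arginine, asparagine, isoleucine and lysine, and lies partly in EcR. It had no IDR summit, although 9 of its genes had a pooled summit, 7 one in replicate 1 and 10 one in replicate 3.

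The next 3 loci held 7 genes each. The locus on X at 14014814 to 14017284, with genes for arginine and serine, had no IDR summit, and 3, 3 and 2 genes had one in the pooled, replicate 1 and replicate 3 lists. That on 2R at 13430282 to 13432794, in ATP8A, had none in the IDR list or in replicate 3, but 5 in replicate 1. That on 2R at 19725620 to 19728958, with glutamate and initiator methionine genes, had 1 in the IDR list, at tRNA:Glu-TTC-1-5, and 5, 5 and 3 in the others. A locus of 6 cysteine and lysine genes in Cht7 on 3L, singled out after its values were seen, had no summit in any list.

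EcR, which encodes the ecdysone receptor that Taiman assists, holds 13 tRNA genes in its introns. Of these 3 had an IDR summit (tRNA:Arg-ACG-1-1, tRNA:Asn-GTT-1-1 and tRNA:Asn-GTT-1-2), 12 a pooled summit, 10 one in replicate 1 and 13 one in replicate 3. Without them the shares were 6.5% of 277 genes in the IDR list, 44% in the pooled list, 49.8% in replicate 1 and 34.3% in replicate 3. The tai gene itself holds 1 tRNA gene, for threonine, which had no summit within 500 bp in any list.

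The asparagine family Asn-GTT had the most genes with an IDR summit, 4 of 10, and 9, 8 and 9 of 10 had one in the pooled, replicate 1 and replicate 3 lists. The 4 genes are neighbouring pairs, and each pair shares a summit, with IDR signals of 68.2 and 69.4. All genes of this family carry the same sequence, in 10 copies, and 6 of them lie in EcR and 2 in Ptr. Glycine family Gly-GCC, with 14 genes, had 0 in the IDR list and in replicate 3 and 3 in each of the others. Initiator methionine, the tRNA that starts translation, had 0 of 6 in the IDR list and 5, 5 and 3 in the others. These families were singled out after their values were seen. Over all 290 tRNA genes the shares were 7.24% in the IDR list, 46.2% in the pooled list, 51% in replicate 1 and 37.2% in replicate 3.

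By arm the IDR counts were 5 of 41 on 2L, 10 of 98 on 2R, 0 of 48 on 3L, 4 of 79 on 3R and 2 of 24 on X. The interval for 3L reaches 7.4% and so contains the share over all arms. In introns the IDR share was 7.87% and between genes 7.05%. Reads from identical copies cannot be placed with certainty inside the genes, and how the authors treated them is not given in the sources used here. For genes whose sequence is found once the IDR share was 9.62% (5 of 52) and in 5 or more copies 6.67% (12 of 180). In the pooled list the order was the opposite, 36.5% and 48.9%, and these intervals overlap too.

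Nearness to protein-coding starts was also counted, here with the starts of all annotated transcripts of each gene. Of the 16 IDR summits 2 (12.5%, interval 1.55 to 38.3) were within 500 bp of such a start. They were at Naam and, 128 bp away, at RpL17 (a ribosomal protein gene) beside tRNA:Phe-GAA-1-2. Over all arm IDR summits the share was 841 of 2567 (32.8%), which the interval contains, and 11.4% of tRNA genes have such a start within 500 bp. The 33 tRNA genes with a protein-coding start within 500 bp had an IDR summit in 3.03% of cases (0.0767 to 15.8), against 7.78% (4.82 to 11.8) of the 257 without. A pooled summit was at 24.2% (11.1 to 42.3) against 49% (42.8 to 55.3). A replicate 1 summit was at 42.4% (25.5 to 60.8) against 52.1% (45.8 to 58.4), and a replicate 3 summit at 24.2% (11.1 to 42.3) against 38.9% (32.9 to 45.2). The intervals overlap in every list but the pooled one. TATCGATA was found within 100 bp of 0 of the 16 summits and of 63 of 2567 (2.45%). The median GC content of the window was 37.3% at the 16 and 34.8% over all.

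At 500 bp the limit cut between values that were close in signal. Just inside it were tRNA:Gln-CTG-2-4 at 400 bp (IDR signal 77), tRNA:Thr-CGT-1-2 at 404 bp (68.2) and tRNA:Ala-TGC-2-1 at 445 bp (90.7). Just outside were tRNA:Leu-AAG-1-1 at 584 bp (79.1), tRNA:Asn-GTT-1-3 at 591 bp (68.2) and tRNA:Leu-CAA-2-2 at 604 bp (74.1).

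Other RNA polymerase III genes were read in the same way. Of 3 U6 genes (U6 is the spliceosomal RNA), 2 shared an IDR summit with a signal of 73.1 at rank 1947, which was 281 bp from snRNA:U6:96Ab and 136 bp from snRNA:U6:96Ac. The 7SK gene snRNA:7SKa, whose RNA holds the elongation factor P-TEFb inactive, had a stronger IDR summit (280, rank 101) but 581 bp away, while the pooled and replicate 1 lists had a weaker summit inside the gene. The other 7SK gene, snRNA:7SKb, had none within 500 bp. RNaseMRP:RNA had a pooled summit at 212 bp and no IDR summit. Neither the 2 7SL genes nor RNaseP:RNA had a summit within 500 bp in any list. Of 100 genes named 5S rRNA, 96 were annotated as rRNA and 4 as pseudogenes, and up to 48 had the same sequence. A summit within 500 bp was found at 0 of them in the IDR, pooled or replicate 3 lists and at 1 in replicate 1. The 5S genes lie side by side on 2R, so they are not separate cases, and reads from identical copies cannot be placed with certainty. For a gene of median tRNA length the share of arm positions was 1.94% in the IDR list and 20.7% in the pooled list. In replicates 1 and 3 it was 20.4% and 21.1%.

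The protein-coding genes of the pathway had IDR summits at shares whose intervals contain the background. Of 20 listed names for RNA polymerase III and its factors 17 were matched, and 1 of these had one within 500 bp of a start, namely Brf, at 101 bp with a signal of 364 (rank 55). The replicate signals there were 202 (rank 73) and 165 (rank 46). Of 35 aminoacyl-tRNA synthetases, which charge tRNAs with their amino acids, 1 had one, the mitochondrial arginine enzyme ArgRS-m at 115 bp (200, rank 238). Of 14 names for tRNA processing and modification 11 were matched and 0 had one, with 2 in the pooled list, 2 in replicate 1 and 1 in replicate 3. These shares were 5.88% (interval 0.149 to 28.7), 2.86% (0.0723 to 14.9) and 0% (0 to 28.5), against 6.33% of all protein-coding genes.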

How the data were processed

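The deposited files are peak lists in narrowPeak layout, 1 per replicate, 1 pooled and 1 IDR list, on dm6. Per the deposited text records, 1 control alignment served for every list, and the IDR list came from both replicates and the pooled list. The sources used here name no aligner, peak caller or settings. The authors' signal value (column 7) was used to rank peaks within a list, and depth is unknown. The other deposited columns read were peak positions and summits. The dm3 lists were not used.

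Genes came from Ensembl release 115 (BDGP6.54) and sequence from RefSeq. Coordinates are 1-based on dm6. Distances ran from the summit to the gene body, with a limit of 500 bp. No test was made, and shares have 95% Clopper-Pearson intervals, which cover counting error only. Named were all tRNA genes with an IDR summit, the 5 largest loci, genes at the distance limit and other RNA polymerase III genes, with additions marked in the text. The rule for the members used no measured value, but the members and lists were chosen with earlier results of these data known. Alternatives were other distances, gene starts, interval overlap, stricter lists, single replicates and other locus gaps. The tools were Python 3.11.15, pandas 2.3.3, numpy 2.4.6, matplotlib 3.10.9 and scipy 1.17.1, and the distance search was checked on simulated data.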

Additional observations from a re-analysis of the deposited data

Results flagged for a closer look

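A signal appeared outside the arms. Of 22 mitochondrial tRNA genes 15 had an IDR summit within 500 bp and 1 had a summit inside. The mitochondrial genome held 24 IDR regions, with signals from 70.1 to 3140. The share of all mitochondrial positions within 500 bp of a summit was not counted. The 15 of 22 therefore cannot be read as particular to tRNA genes. Mitochondrial DNA is present in many copies per cell, and its part in these values was not tested.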

How the results depend on the processing

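Of 65 values under alternatives, 38 stayed close to the reported one, 25 moved and 2 reversed. A count or median signal was called close when it was within 1.5-fold of the reported value. The median position was called close when it moved by less than 66.8 bp, the standard deviation of the 2 single-replicate medians, and reversed when its sign changed. With a limit of 250 bp, 10 tRNA genes and 10 loci had an IDR summit, 79, 95 and 53 genes a pooled, replicate 1 and replicate 3 summit, and 2 genes one in both top sets. With 1000 bp, 36 genes had an IDR summit and 13 were in both top sets. Measured from the gene start, 3 were in both top sets. Requiring the interval to overlap the gene left 8 genes and 8 loci in the IDR list, 67 pooled, 84 in replicate 1, 48 in replicate 3 and 1 in both top sets. The strongest regions alone gave 21, 16 and 18 in the pooled, replicate 1 and replicate 3 lists. The 21 was fixed in advance, because the strongest pooled regions are the IDR list. The stronger 1283 IDR peaks gave 6 genes, 6 loci and a median signal of 133. The median position of -163.0 bp was -62.5 bp at both 250 and 1000 bp and without the tRNA genes in EcR (an alternative chosen after seeing the data). It reversed to 58.0 bp with overlap and to 227.0 bp with the stronger IDR peaks; the cause was not tested. Leaving out 1 replicate meant using the strongest regions of the other in place of the IDR list. The median position then ran from -146.0 to -51.5 bp, genes with a summit numbered 16 to 18 and loci 13. These gene counts repeat those of the strongest regions, so the 65 values are not all separate checks. No paired analysis was possible because there was 1 group. Median signals by single replicate were not run because each list has its own scale.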

Other observations

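The strongest replicate 1 summit at any tRNA gene was 153 bp from tRNA:Tyr-GTA-1-8, a tyrosine gene on 3R in introns of CG8036 and p, with a signal of 157 at rank 157. The gene was named after its values were seen. An annotated start of the protein-coding gene CG8036 lay 444 bp from this tRNA gene. In replicate 3 the nearest summit was 14220 bp away, and in the pooled list it was 1608 bp away with a signal of 44.8. The gene therefore had a strong summit in 1 replicate only.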
